A study of Homo sapiens with 6 samples.

Results

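The proteasome mRNAs of HCT116 nuclei were followed through a native RNA immunoprecipitation of ORC1, the largest subunit of the origin recognition complex, which marks the places where DNA replication starts. The members are the rows of the gene table whose symbol starts with PSMA, PSMB, PSMC, PSMD, PSME, PSMF or PSMG followed by a digit. Of 64 such symbols, the 13 that end in P and a digit, as numbered pseudogenes do, were left out, so that 51 of 23013 genes remained. Of the 51 members, 46 encode a subunit, activator, inhibitor or assembly factor of the proteasome, and 5 have another kind of symbol. These are PSMD5-AS1, PSMG3-AS1 and PSMD6-AS2, which have antisense symbols, the unnumbered pseudogene PSMD12P, and PSMC3IP. PSMC3IP encodes a recombination factor that only carries the name of a binding partner. The gene annotation GENCODE v44 lists PSMD5-AS1 as a transcribed pseudogene, CUTALP. The mean normalised count over the libraries was at least 10 for 50 members, which were tested with all other such genes. The remaining member, PSMB8, had a mean of 4.92.

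HCT116 is a human colorectal cancer line. Nuclear RNA of untreated asynchronous cells was sequenced from 3 inputs, for which no antibody was used, and from 3 pull-downs of the endogenous ORC1 protein (ORC1 IP). The labels name no engineered allele. The labels number an input and an ORC1 IP of each RIP replicate from 1 to 3, but do not say whether replicates came from separate cultures, so the p-values measure the spread between these libraries. Reads on genes ranged from 13703033 to 17248924 in the inputs and from 25134156 to 36008733 in the ORC1 IP. No immunoprecipitate with a control antibody was analysed here. The epithelial markers EPCAM, KRT8, KRT18, CDH1 and CDX2 were present in all libraries, between 192 and 82363 normalised counts. Of the markers of other cell types, COL1A1 was at 161 to 787 and PTPRC, CD3E, COL1A2 and PECAM1 have no row. Replicates of ORC1 IP differed more from each other than those of input did: across genes, Pearson's r of log2 values was 0.902 to 0.958 between ORC1 IP libraries and 0.951 to 0.969 between inputs.

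The proteasome degrades proteins that carry ubiquitin. Its core particle, the 20S, is a barrel of outer rings of alpha subunits (PSMA genes), which gate the entrance, and inner rings of beta subunits (PSMB genes), which hold the active sites. The 19S cap binds and unfolds substrates: its base has a ring of ATPases (PSMC genes) and large non-ATPase subunits, and its lid removes ubiquitin. Other proteins activate the core (PSME genes), inhibit it (PSMF1) or help to build it (PSMG genes and several PSMD genes). Each assembled particle holds the subunits of a ring in equal numbers. Values are normalised counts, the reads on a gene divided by 1 size factor per library. They are relative to the rest of the library, so that less of an mRNA and more of other RNAs cannot be told apart, nor can fewer cells with an mRNA and less of it per cell in such bulk samples.

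Sequences of the members with the lowest and the highest difference between ORC1 IP and input are shown as their promoters, the 250 bases before the RefSeq start site on GRCh38.p14. Capitals mark TGACNNNGC on either strand, the core of the antioxidant response element, a motif known from proteasome promoters and bound by the transcription factors NFE2L1 and NFE2L2. The first promoter lies at chr17:38752491-38752740 on the plus strand and the other at chr2:53970994-53971243 on the minus strand.
PSMB3: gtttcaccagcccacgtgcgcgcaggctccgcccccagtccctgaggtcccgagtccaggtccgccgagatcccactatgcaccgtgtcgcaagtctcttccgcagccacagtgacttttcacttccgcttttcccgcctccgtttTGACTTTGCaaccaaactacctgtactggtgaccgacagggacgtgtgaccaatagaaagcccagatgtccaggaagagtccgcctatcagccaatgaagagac
PSME4: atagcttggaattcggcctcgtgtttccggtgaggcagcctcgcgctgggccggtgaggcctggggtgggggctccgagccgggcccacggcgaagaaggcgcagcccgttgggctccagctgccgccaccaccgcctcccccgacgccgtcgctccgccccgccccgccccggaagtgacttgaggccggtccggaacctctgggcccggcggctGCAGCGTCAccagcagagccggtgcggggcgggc
Both windows hold the motif once. Over the RefSeq windows of 250 bases before to 50 after the start, 15 of the 40 subunit and factor genes with an entry held it (37.5%), against 16.1% of all 27305 genes with an entry. A gene was counted if any of its windows held the motif, so genes with several start sites had more chances. The number of windows per gene was not compared. Within the beta ring the motif was found in 1 of the 4 genes with an entry, PSMB3. CCAAT, searched on both strands in the same way, was in 47.5% of these members and 39.7% of all genes.

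Among the 50 tested members, 1 mRNA was lower in ORC1 IP than in input at an adjusted p under 0.05 and none was higher (limma with Benjamini-Hochberg adjustment over 16513 genes), where 1.42% of all tested genes were called lower and 2.28% higher. The called mRNA was PSMB3, a structural beta subunit of the core. At an unadjusted p under 0.05, 13 members were lower (9.45% of all tested genes) and 1 was higher (12.2% of all tested genes). By the threshold of the study turned to both sides, a log2 difference beyond 1 with an unadjusted p under 0.05, 11 members were lower (7.25% of all tested genes) and 1 was higher (10.9%). edgeR on the recovered reads likewise called 1 member lower and 0 higher, against 1.31% and 2.57% of all tested genes. DESeq2 called 7 lower and 0 higher, against 4.35% and 7.67% of all tested genes. With the replicate number as a block, limma called PSMB3 lower and no member higher, against 1.16% and 2.62% of all tested genes. The median log2 difference was -0.37 over the members and 0.014 over all tested genes, with 31 members below 0 and 19 above (49.3% of all tested genes were below 0). Between them the members took 0.771% ± 0.0656 (SD, n = 3) of the reads on genes in the inputs and 0.548% ± 0.0954 in ORC1 IP. The share was between 0.721% and 0.846% in the inputs and between 0.441% and 0.623% in ORC1 IP, without overlap. An exact two-sided permutation test over libraries gave p = 0.1, the smallest value possible with 3 against 3. With total count scaling, the median log2 difference was -0.19 over all tested genes and -0.58 over the members.

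**Figure D1:**
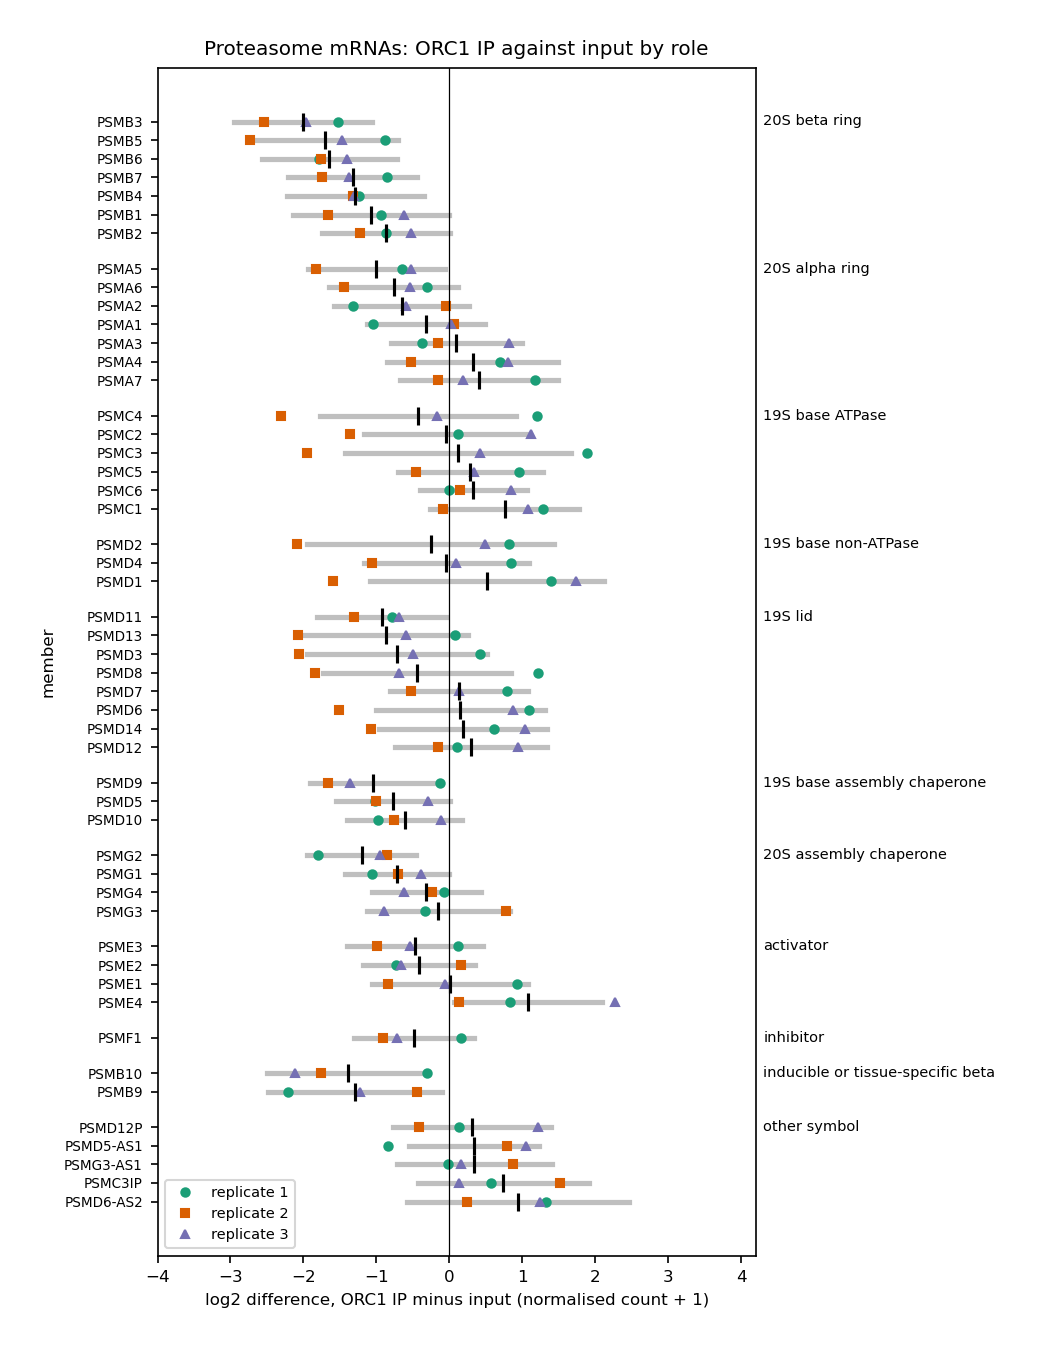
Log2 difference between ORC1 IP and input (x axis, log2 of normalised count + 1) of the 50 tested members, grouped by role on the y axis. Coloured symbols are the 3 replicates, black ticks the fitted difference and grey bars its 95% confidence interval. All symbols of the 20S beta ring lie left of 0, whereas the 19S base ATPases scatter on both sides, with replicate 2 (squares) mostly lowest.

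The constitutive beta ring lay lowest of the roles with more than 3 members. All 7 mRNAs, PSMB1 to PSMB7, were lower in ORC1 IP in each of the 3 replicates, which 19.2% of all tested genes were, and in all 7 each ORC1 IP library lay below each input, which 13.5% of all tested genes did. The median log2 difference of the ring was -1.32, and its members ranged from -2.01 to -0.87. PSMB3 alone passed the adjusted threshold.

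PSMB3 (ENSG00000108294, chr17:38752741-38764225 in GENCODE v44 on GRCh38, matched by symbol) had 3967, 6903 and 7863 normalised counts in input replicates 1 to 3 and 1382, 1184 and 2016 in ORC1 IP. All ORC1 IP values were under the lowest input, and the log2 difference was -2.01 (SE 0.436, adjusted p = 0.0302, limma). The adjusted p of PSMB3 was 0.0357 with edgeR and 1.21e-04 with DESeq2. With 1 library fewer, the limma call of PSMB3 was not always kept. Its adjusted p rose to 0.142 and 0.223 when input replicates 2 and 3 were dropped in turn. Dropping ORC1 IP replicates 1 and 3 in turn gave 0.0669 and 0.0696. In these fits, in the same order, 0.236%, 0.139%, 0.721% and 0.139% of all tested genes were called lower, against 1.42% with all libraries. Whether the call of PSMB3 rested on particular libraries was not tested. The call held when input replicate 1 (adjusted p = 0.0358) or ORC1 IP replicate 2 (0.00532) was dropped. In those fits 0.999% and 6.38% of all tested genes were called lower. The log2 difference stayed between -2.31 and -1.81 whichever library was left out.

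The 3 catalytic subunits of the standard core followed. PSMB5, which carries the chymotrypsin-like site, had 3408, 6373 and 6041 normalised counts in input and 1839, 958 and 2172 in ORC1 IP, a log2 difference of -1.70 (SE 0.457, adjusted p = 0.0590, limma). PSMB6, the caspase-like subunit, had 3579, 4198 and 5837 in input and 1040, 1243 and 2213 in ORC1 IP, a difference of -1.65 (SE 0.427, adjusted p = 0.0537). PSMB7, the trypsin-like subunit, had 3714, 5349 and 5873 in input and 2061, 1599 and 2251 in ORC1 IP, a difference of -1.32 (SE 0.408, adjusted p = 0.0876). None of the catalytic subunits passed the threshold, and the ORC1 IP and input values of each did not overlap. Other structural subunits were nearer to 0. PSMB4 had a log2 difference of -1.29 (adjusted p = 0.108), PSMB1 of -1.08 (adjusted p = 0.226) and PSMB2 of -0.87 (adjusted p = 0.239). PSMB2 had the most even inputs of the ring, 4396 ± 121 (SD, n = 3), against 2463 ± 647 in ORC1 IP.

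With ORC1 IP replicate 2 left out, 6 members passed as lower, namely PSMB3, PSMB4, PSMB5, PSMB6, PSMB7 and the assembly chaperone PSMG2, and 2 as higher, PSMD1 and PSME4. In that fit 6.38% of all tested genes were called lower and 11.9% higher. DESeq2 with all libraries called PSMB3 to PSMB7, PSMB10 and PSMG2 lower. Under every setting tried, including each library left out and 4 ways of scaling, the highest member of the beta ring stayed below 0, between -1.08 and -0.67.

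**Figure D2:**
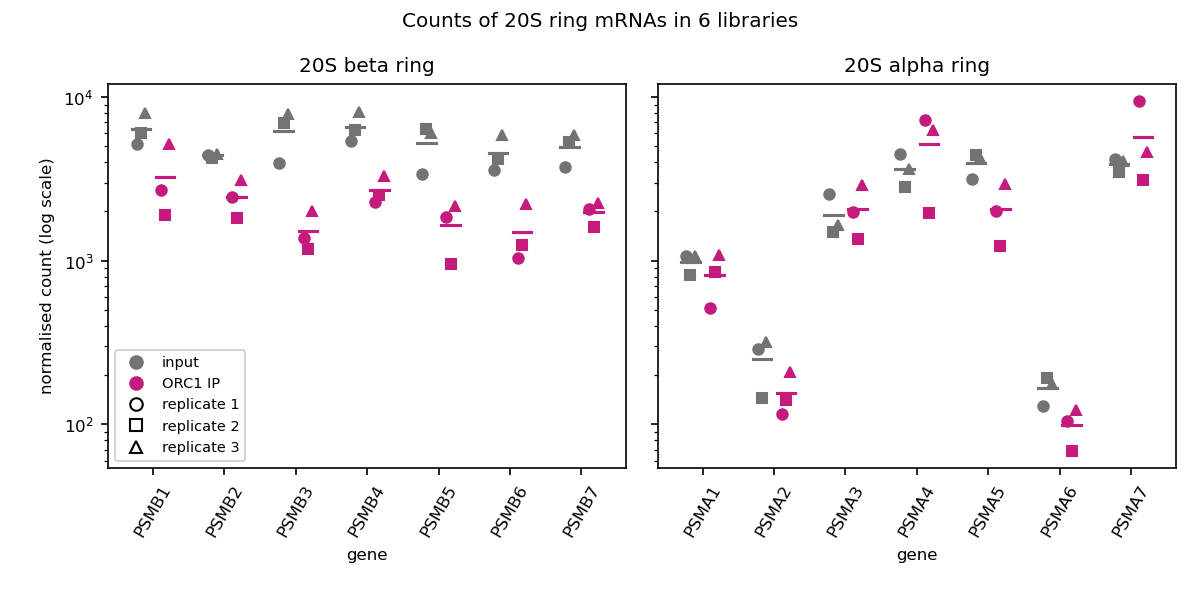
Normalised counts on a log axis of the beta ring mRNAs (left) and the alpha ring mRNAs (right) in each of the 6 libraries. Grey is input, magenta is ORC1 IP, symbol shapes are replicates and short bars are means. For PSMB1 to PSMB7 every magenta symbol lies below every grey one, whereas for PSMA1, PSMA2, PSMA3, PSMA4 and PSMA7 the groups overlap.

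The alpha ring, which encloses the same core, did not show this as a whole. Its median log2 difference was -0.32, and none of 7 members passed the threshold. Of them 3 (42.9%) were lower in all replicates, against 19.2% of all tested genes. The median was -0.031 without ORC1 IP replicate 1, -0.55 without ORC1 IP replicate 3 and -0.53 with total count scaling. PSMA5 lay lowest, with 3163, 4400 and 4230 normalised counts in input and 2020, 1233 and 2930 in ORC1 IP, a log2 difference of -1.004 (SE 0.434, adjusted p = 0.2003). Its groups did not overlap, and neither did those of PSMA6, at -0.76. Of all tested genes, 13.5% had each ORC1 IP library below each input. PSMA7 lay highest, with 4157, 3499 and 4070 in input and 9405, 3132 and 4645 in ORC1 IP, a difference of 0.40 (SE 0.497, adjusted p = 0.690). ORC1 IP replicate 1 of PSMA7 lay highest of the 6 libraries, and the groups overlapped. The 95% confidence interval for PSMA7, from -0.68 to 1.48, takes in a fall as well as a rise.

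Since both rings come from the same library, the ratio of their summed counts does not depend on how libraries were scaled. The beta to alpha ratio was 1.88, 2.94 and 3.05 in the inputs and 0.644, 1.28 and 1.11 in ORC1 IP. The means were 2.62 ± 0.648 and 1.01 ± 0.331 (SD, n = 3 each), and the groups did not overlap. The beta ring against the 19S ATPases gave 1.94, 1.78 and 2.48 in the inputs and 0.373, 1.45 and 0.832 in ORC1 IP, again without overlap. The alpha ring against the ATPases did overlap, at 0.817 ± 0.214 in the inputs and 0.819 ± 0.282 in ORC1 IP. These ratios were chosen after the values of single members were known and were not tested.

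**Figure D3:**
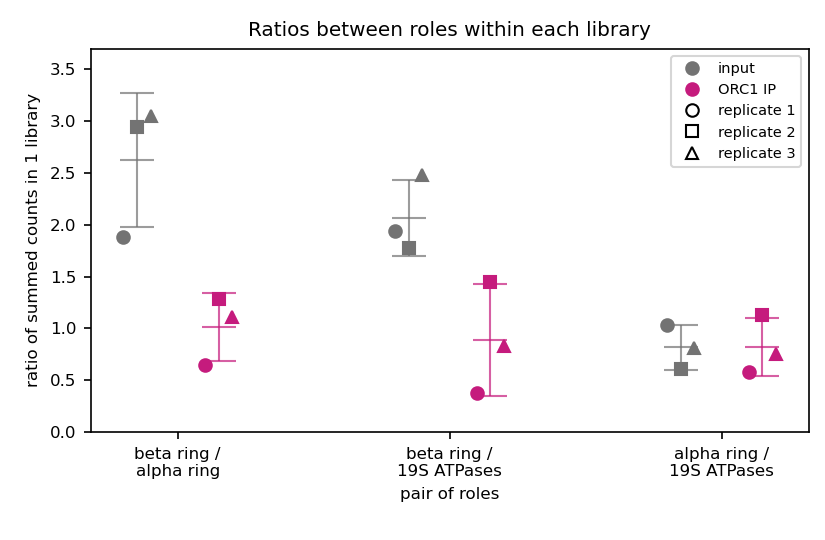
Ratio of summed counts of pairs of roles within each library (y axis, linear from 0). Grey is input, magenta is ORC1 IP, symbol shapes are replicates, and bars show the mean ± SD over 3 libraries. Both ratios with the beta ring on top are lower in all ORC1 IP libraries than in all inputs, and the alpha to ATPase ratio is not.

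Levels were also divided by coding length, although counts can take in reads on untranslated parts. Transcript and coding lengths were 4426 and 603 bases for PSMB2, 3815 and 723 for PSMA5, and 962 and 744 for PSMA7. Levels per kilobase of whole transcript were not compared, so the values below do not rank the rings by abundance. Per kilobase of coding sequence, the lowest beta ring mRNA lay above the highest alpha ring mRNA in the mean of the inputs. Of the single inputs, this held in replicate 3 alone. In input replicate 1, PSMA4 (5697) and PSMA7 (5588) were above PSMB5 (4320), PSMB7 (4469) and PSMB6 (4992), and in input replicate 2, PSMA5 (6086) was above PSMB6 (5856). Mean beta ring levels ran from 5991 (PSMB7) to 10154 (PSMB3) normalised counts per coding kilobase in input, and in ORC1 IP from 2090 (PSMB6) to 4502 (PSMB1). Alpha ring levels ran from 225 (PSMA6) to 5437 (PSMA5) in input and from 133 (PSMA6) to 7698 (PSMA7) in ORC1 IP. Thus PSMB3 had the highest level of the ring per coding kilobase in input, and in ORC1 IP, at 2483, it was below PSMB1, PSMB2 and PSMB4. Of the genes at low levels, PSMA6 and the ATPase genes PSMC6 and PSMC1, at 225, 455 and 27.5 per coding kilobase in input, share much of their sequence with other loci, and the part of this in their levels was not tested.

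The ATPases of the 19S base, which unfold substrates and drive them into the core, had a median log2 difference of 0.20, and none of the 6 was called. Their median turned to -0.098 without ORC1 IP replicate 1 and -0.015 with total count scaling. It was 0.35 with edgeR, 0.33 with DESeq2, 0.60, 0.086 and 0.28 without ORC1 IP replicate 2, ORC1 IP replicate 3 and input replicate 2, 0.13 without input replicate 1, and 0.12 with a filter at a mean of 50, which drops PSMC1. PSMC3 showed how far replicates could part. It had 4934, 8134 and 6921 normalised counts in input and 18297, 2093 and 9229 in ORC1 IP. Its log2 difference was 1.89, -1.96 and 0.42 in replicates 1 to 3 and 0.12 in the fit (SE 0.716, adjusted p = 0.946). PSMC4 lay lowest of the ATPases at -0.43 (SE 0.620, adjusted p = 0.741), with 3673, 7234 and 5569 in input and 8470, 1457 and 4934 in ORC1 IP. All ATPase mRNAs but PSMC6 lay below their input in replicate 2, and PSMC4 alone did so in replicate 3.

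PSMC1 lay highest of the ATPases at 0.76 (SE 0.470, adjusted p = 0.38), but on few reads. It had 30.6, 48.9 and 29.3 normalised counts in input and 76.0, 45.9 and 62.6 in ORC1 IP. Of all 50-base stretches of the PSMC1 transcript, 38.0% also occur outside the gene, most often in its pseudogene PSMC1P1, which had 938, 901 and 672 normalised counts in input and 2896, 430 and 1347 in ORC1 IP. Bases 46 to 95 of the PSMC1 transcript, shown because reads inside them cannot be placed in 1 gene, are such a stretch.
PSMC1: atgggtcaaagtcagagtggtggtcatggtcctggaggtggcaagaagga
The share of such stretches was above 10% for 6 members in all, PSMC1, PSMC6 (30.7%), PSMA6 (27.6%), PSMD4 (23.4%), PSME2 (19.8%) and PSMD2 (11.3%), and it was 0 for 24 of the 46 subunit and factor genes and for 28 of all 51 members. In the beta ring it was 0 for all but PSMB2, at 3.79%. The sources used here do not give how reads that match several places were counted, so the counts of those 6 are uncertain.

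The large non-ATPase subunits of the base differed widely between replicates. PSMD1, a scaffold of the base, had 6472, 8236 and 6497 normalised counts in input and 16962, 2733 and 21691 in ORC1 IP. Replicates 1 and 3 were above every input and replicate 2 was below every input, and the log2 difference was 0.51 (SE 0.739, adjusted p = 0.739). Without ORC1 IP replicate 2 it was 1.45 (adjusted p = 0.0161), and without ORC1 IP replicate 3 it was -0.044. PSMD2, the other scaffold and the most abundant member by count, had 11530, 16521 and 17761 in input and 20360, 3897 and 24966 in ORC1 IP, a difference of -0.26 (SE 0.781, adjusted p = 0.885). The sign for PSMD2 was the opposite with edgeR (0.083) and DESeq2 (0.067).

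Of the 8 lid mRNAs none was called, and their median log2 difference was -0.16. The sign of this median was not stable: it was 0.066 with edgeR, 0.052 with DESeq2 and 0.33 without ORC1 IP replicate 2, and it was -0.37 with total count scaling, -0.66 without ORC1 IP replicate 1, -0.30 without ORC1 IP replicate 3 and -0.27 without input replicate 1. PSMD11 lay lowest and was the only lid mRNA lower in all replicates, with 4926, 5757 and 4514 normalised counts in input and 2861, 2321 and 2798 in ORC1 IP, a difference of -0.93 (SE 0.406, adjusted p = 0.206). PSMD12 lay highest at 0.30 (SE 0.478, adjusted p = 0.771). PSMD3 had the most counts of the lid, 7627 ± 1917 in input and 5160 ± 2713 in ORC1 IP (SD, n = 3 each). The deubiquitinase of the lid, PSMD14, had a difference of 0.19 (SE 0.530, adjusted p = 0.877).

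The assembly factors leaned below 0 without a call. The 3 chaperones of the base, PSMD5, PSMD9 and PSMD10, were each lower in all replicates, with log2 differences of -0.77, -1.05 and -0.61 (adjusted p = 0.234, 0.145 and 0.356, limma). PSMG2, which with PSMG1 guides the alpha ring into shape, had 933, 799 and 706 normalised counts in input and 267, 443 and 364 in ORC1 IP. Its groups did not overlap, and the difference was -1.20 (SE 0.346, adjusted p = 0.0705). It passed with DESeq2 (adjusted p = 0.0290) and without ORC1 IP replicate 2 (adjusted p = 0.0127). PSMG1 lay at -0.72 (adjusted p = 0.230), PSMG4 at -0.32 (adjusted p = 0.644) and PSMG3 at -0.15 (adjusted p = 0.881). The value of PSMG3 was above 0 with edgeR (0.091) and DESeq2 (0.059).

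Among the activators, PSME4, the large single-chain activator of nuclear proteasomes also known as PA200, was the one subunit or factor mRNA higher in all 3 replicates, which 19.8% of all tested genes were. It had 1950, 2167 and 1540 normalised counts in input and 3471, 2367 and 7418 in ORC1 IP. All ORC1 IP values were above all inputs, which held for 12.7% of all tested genes, and the log2 difference was 1.08 (SE 0.469, adjusted p = 0.204). Without ORC1 IP replicate 2 it was 1.44 (adjusted p = 0.0185). PSME3, which forms the nuclear activator ring, lay at -0.47 (SE 0.432, adjusted p = 0.571). PSME1 and PSME2, which form the interferon-inducible ring, lay at 0.0043 (SE 0.492, adjusted p = 0.997) and -0.41 (SE 0.355, adjusted p = 0.538). The inhibitor PSMF1 lay at -0.49 (SE 0.379, adjusted p = 0.493).

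The interferon-inducible beta subunits, which replace the standard catalytic subunits in immunoproteasomes, were scarce. PSMB10 had 47.5, 136 and 106 normalised counts in input and 38.0, 39.5 and 23.8 in ORC1 IP, a log2 difference of -1.39 (SE 0.511, adjusted p = 0.136). PSMB9 had 99.2, 69.3 and 172 in input and 20.7, 50.5 and 73.0 in ORC1 IP, a difference of -1.29 (SE 0.548, adjusted p = 0.192). The groups of PSMB9 overlapped, those of PSMB10 did not, and both were lower in all replicates. PSMB8 was under the filter, with 5.28, 4.73 and 7.02 in input and 2.30, 3.48 and 6.71 in ORC1 IP.

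The 5 members that encode no proteasome protein all lay above 0 and none was called. PSMC3IP had a log2 difference of 0.74 (adjusted p = 0.461), PSMD6-AS2 of 0.94 (adjusted p = 0.472), PSMD5-AS1 of 0.34 (adjusted p = 0.686), PSMG3-AS1 of 0.34 (adjusted p = 0.740) and PSMD12P of 0.31 (adjusted p = 0.770). The study prepared these libraries with a stranded kit, but the sources used here do not say whether counting used the strand. The span of 23 members overlaps another gene of the table on the opposite strand in GENCODE v44, among them PSMD5 with PSMD5-AS1 over 18124 bases, PSMD6 with PSMD6-AS2 over 1599 and PSMB8 with PSMB9 over 544, and reads of such partners may not be told apart. On the same strand, where no strand setting would part the reads, 7 members overlap another gene of the table, among them the alpha ring genes PSMA2 over 15358 bases and PSMA6 over 38842 and the ATPase gene PSMC2 over 3249. The part of such overlaps in the levels of these members was not tested. No overlap of either kind was found for PSMB1 to PSMB7. Only genes with the same identifier in the gene table and in GENCODE v44 could be found, and PSMB3 itself was matched by symbol.

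One library moved with many of these values. ORC1 IP replicate 2 was the lowest of the 6 libraries for 29 of the 50 tested members (58%), against 25.7% of all tested genes. In replicate 2, 41 members (82%) lay below their input (49.7% of all tested genes), against 26 in replicate 1 and 28 in replicate 3. The median log2 difference of the members was -0.019, -0.95 and -0.23 in replicates 1 to 3. The beta ring was low in each, with medians of -0.94, -1.74 and -1.38, whereas the ATPases had 1.08, -0.91 and 0.63 and the lid 0.51, -1.41 and -0.19. Across genes, Pearson's r of ORC1 IP replicate 2 was 0.9413, 0.8788 and 0.8921 with input replicates 1 to 3. It was 0.9025 and 0.9196 with ORC1 IP replicates 1 and 3. ORC1 IP replicate 3 also had 0.9426 with input replicate 1, and 0.9576 with ORC1 IP replicate 1. Normalised counts summed to 1.46e+07 in ORC1 IP replicate 2, and to 3.02e+07 and 2.68e+07 in ORC1 IP replicates 1 and 3. The inputs had 1.82e+07 to 2.16e+07. The part of ORC1 IP replicate 2 in the results of single members was not tested beyond leaving it out.

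Coding length went with the difference, as it did over all genes. Over the 45 tested subunit and factor mRNAs, Spearman's rho between coding length and log2 difference was 0.44, and over 12537 tested genes with a coding length it was 0.50. By replicate the members had 0.55, -0.17 and 0.57 and all genes 0.47, 0.043 and 0.60. These are descriptions across genes, which share the same libraries and are not independent. PSMB1 to PSMB7 have coding lengths of 603 to 831 bases. The 1303 tested genes of that length had a median log2 difference of -0.33, and 32.2% of them were lower in all replicates, with 1.30% called lower. The alpha ring, of 702 to 789 coding bases, had a median of -0.32, and the beta ring of -1.32. PSME4, with 5529 coding bases, has the longest coding sequence of the members. Transcript GC content gave a rho of -0.26 over the members and -0.19 over all genes, with 0.19, -0.41 and -0.48 over the members in replicates 1 to 3. The mean input count gave -0.11 over the members, with 0.23, -0.66 and 0.0036 by replicate, so replicate 2 stood apart and the signs turned.

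**Figure D4:**
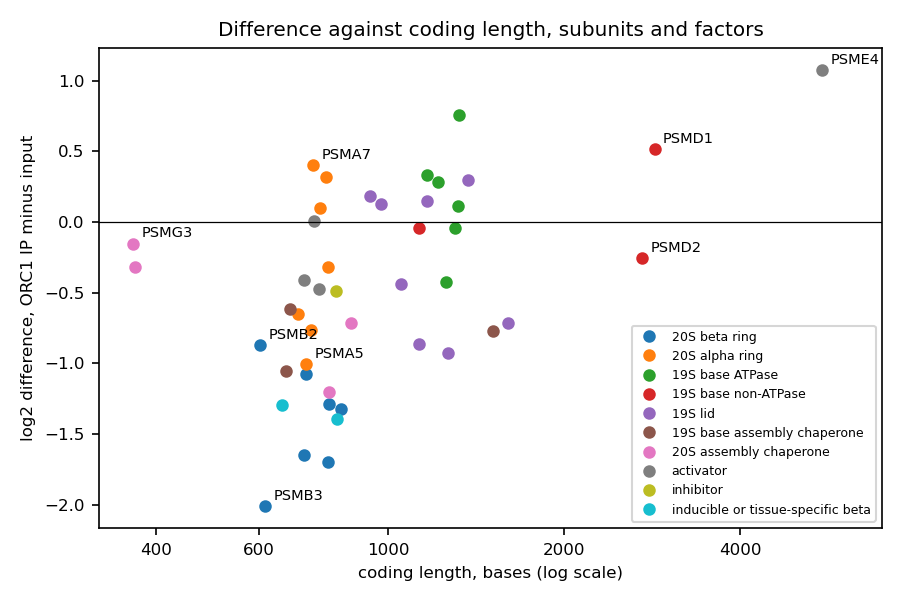
Log2 difference between ORC1 IP and input (y axis) against coding length in bases (x axis, log scale) for the 45 tested mRNAs of subunits and factors, 1 point per mRNA coloured by role. Of the 7 beta ring points (dark blue), 6 lie below every alpha ring point (orange) at like coding lengths. PSME4, with the longest coding length at 5529 bases, lies highest.

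Tandem GAA repeats, which the study found enriched in RNAs bound by ORC1, were looked for in the member transcripts. The study reports that ORC1 does not bind RNA through this sequence. It used a motif finder on the largest transcripts, whereas exact runs in the reference transcript of each gene were sought here. At least 3 GAA in a row occurred in 4 of the 46 subunit and factor transcripts (8.70%), against 13.0% of all tested genes with a reference transcript. The 4 stretches are shown with the repeat in capitals, because they are the sites where a member carries such a run. All lie in coding sequence.
PSMA4: catgagGAAGAAGAAgccaaa
PSMC1: gaaaaaGAAGAAGAAaacaaa
PSMA6: aaaagtGAAGAAGAAatttga
PSMD14: gctgtaGAAGAAGAAgataag
The log2 differences of these 4 mRNAs were 0.32 for PSMA4, 0.76 for PSMC1, -0.76 for PSMA6 and 0.19 for PSMD14, none of them called. Neither PSMB3 nor PSME4 holds 3 GAA in a row.

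Of 32 other genes of the pathway, 1 was called lower and none higher (1.42% and 2.28% of all tested genes), and the median log2 difference was 0.061. The called gene was POMP, the maturation protein that helps the beta ring to form on the alpha ring and is the first substrate of the finished core. POMP had 2292, 2318 and 2594 normalised counts in input and 728, 788 and 925 in ORC1 IP. The ORC1 IP values lay close together and far under all inputs, with a log2 difference of -1.57 (SE 0.339, adjusted p = 0.0302, limma). The call did not hold under every setting. The adjusted p of POMP was 0.0517 with the replicate block and 0.0541 with total count scaling, and with 1 library left out it was 0.0508 without input replicate 1, 0.137 and 0.216 without input replicates 2 and 3, and 0.0812, 0.00526 and 0.0769 without ORC1 IP replicates 1, 2 and 3. The log2 difference of POMP stayed between -1.78 and -1.49. At an unadjusted p under 0.05, 1 of the 32 genes was lower and 2 were higher, where 9.45% and 12.2% of all tested genes were, so neither count exceeds the background. KIAA0368, which encodes a proteasome adaptor, lay highest at 1.14 (SE 0.639, adjusted p = 0.330). The transcription factor gene NFE2L1, which drives proteasome genes, lay at -0.41 (adjusted p = 0.693). Without ORC1 IP replicate 2, 4 of the 32 genes passed as higher (USP14, KIAA0368, NFE2L2 and AKIRIN2), where 11.9% of all tested genes did, so the count is near the background.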

How the data were processed

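RIP-seq libraries of 3 inputs and 3 ORC1 immunoprecipitates were analysed as deposited. Per the study's methods, the authors used Trimmomatic for trimming, STAR for alignment to hg19 and featureCounts with Ensembl genes. They dropped reads on GL contigs and used DESeq2 for differential expression. The deposited signal is a normalised count per gene, and its division by a size factor per library was inferred from the values. Multiplied by the recovered size factor of the library, 100% of values in each library were whole reads within a tolerance of 0.001. The deposited table also holds the authors' fold changes, their standard errors, test statistics and p-values, which were not used.

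Differences were fitted with limma 3.58.1 in R 4.3.3 (moderated test with an intensity trend, no block) on log2(normalised count + 1) of the 16513 genes whose mean reached 10. This scale understates changes of low genes. An adjusted p under 0.05 over all these genes was the threshold. edgeR 4.0.16, DESeq2 1.42.0, a replicate block, other pseudocounts, filters and scalings, and each library left out were alternatives. The script was tested on simulated data. The members, roles and gene lists were chosen with earlier results of these data known. Named members are those called, in each role the lowest, the highest and the most abundant by count, the catalytic beta subunits, members under the filter and symbols of other kinds. A few more were named after their values were seen, such as PSMA6 and PSMD14. The labels pair an input and an ORC1 IP by replicate number. Their deviations from group means correlated at -0.32, -0.24 and 0.22 across genes in replicates 1 to 3.

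Lengths, coordinates and sequences came from GENCODE v44 (GRCh38), with 50 members matched by identifier and 1, PSMB3, by symbol, and promoters from RefSeq. Counts carry no molecular identifiers. The number of libraries limits the precision, with 110774 to 224176 reads on members in ORC1 IP and 102441 to 138983 in input. Stretches shared with other loci are exact matches of 50 bases anywhere in GRCh38.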

Additional observations from a re-analysis of the deposited data

How the results depend on the processing

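The count of members called lower was 1 with the settings of the report. It was 2 with total count scaling (PSMB3 and PSMB5; 0.581% of all tested genes), 3 with upper quartile scaling (PSMB3, PSMB5 and PSMB6; 1.70%) and 7 with DESeq2 (4.35%). It stayed at 1 with both other pseudocounts, both other filters, TMM scaling, edgeR and the replicate block. Leaving out 1 library gave 0 to 6 members called lower and 0 to 2 called higher, and the extremes of 6 and 2 both came without ORC1 IP replicate 2. The count was 0 without input replicate 2, input replicate 3, ORC1 IP replicate 1 or ORC1 IP replicate 3, fits in which 0.236%, 0.139%, 0.721% and 0.139% of all tested genes were called lower. No other setting called a member higher. The median over members stayed between -0.58 (total count scaling) and -0.21 (edgeR). Total count scaling moved the median of all tested genes from 0.014 to -0.19. With the replicate block, which follows the pairing in the labels, PSMB3 was called with an adjusted p of 0.0403 and no call among the members changed.

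Over all settings the sign turned for 16 of the 50 tested members, and for 10 with all libraries in the fit, among them PSMC2 (0.196 with edgeR, 0.178 with DESeq2) and PSMD4 (0.143 and 0.132). PSMD8 was at 0.174 without ORC1 IP replicate 2. None of PSMB1 to PSMB7 turned. PSMC3 was at -0.10 with total count scaling, PSMG3 at 0.091 with edgeR and 0.059 with DESeq2, and PSMD2 at 0.083 and 0.067. With 1 library left out, PSMC3 ranged from -0.57 to 0.99, PSMG3 from -0.70 to 0.17, PSMC4 from -0.98 to 0.29, PSMA7 from -0.031 to 0.76, PSMD1 from -0.044 to 1.45 and PSMD2 from -0.75 to 0.59. The cause was not tested.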

Other observations

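Of the 13 numbered pseudogenes that the rule left out, PSMC1P1 had 837 normalised counts on average in the inputs, against 36.2 for its parent PSMC1, and PSMA6P1 had 656 against 166 for PSMA6.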
